A study of Oryza sativa Japonica Group with 6 samples.

Results

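The genes described here are 10 rice genes for the NF-YB and NF-YC subunits of nuclear factor Y (NF-Y) that are not specific to the endosperm: 6 NF-YB genes and 4 NF-YC genes, of 93655 features in the expression table. They were chosen by gene ID, by a rule that names no measured value, though with earlier results of these data known. The nf-yc11 libraries came from endosperm of nf-yc11 mutant plants 7 days after pollination, and the WT libraries from wild-type endosperm of the same age, with 3 libraries in each group. The title gives ZH11, a japonica rice cultivar, beside the mutant, and the design text asks how mRNA levels differ between them. The labels give neither the position nor the kind of the nf-yc11 mutation, and they do not say whether replicates came from separate plants. The p-values therefore measure the spread between these libraries only, which may be technical.

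NF-Y is a transcription factor of 3 different subunits that binds the CCAAT box of promoters. NF-YB and NF-YC carry histone-fold domains, pair with each other first, and then take up NF-YA, which recognises the DNA. Plants have many genes for each subunit, and in rice flowering-time control a pair of NF-YB and NF-YC can instead take up a CCT-domain protein such as Hd1. In rice endosperm the best known pair is NF-YB1 with NF-YC12, which acts on grain filling, whereas the genes described here are known mainly from leaves and other vegetative tissue. Whether they are broadly expressed could not be checked in a series of 1 tissue.

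Gene symbols were paired with the IDs from general knowledge. A RefSeq gene table (ASM3414082v1), which holds no IDs of this kind, has 9 of the 10 symbols on the chromosome that the ID gives, and NF-YC1 rests on the written pair alone. For the 2 genes on chromosome 5 the names NF-YB3 and NF-YB4 follow the order of positions in that table.

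Expression is given in FPKM, in which read numbers are divided by gene length and by library total, so that levels of different genes can be compared. The totals behind the values were 15735968 to 16989039 reads in nf-yc11 and 14593215 to 21984785 in WT. The gene written here as NF-YC11 (OS05G0304800) stood at 106, 111 and 112 FPKM in nf-yc11 libraries, against 125, 124 and 130 FPKM in WT libraries. Its symbol was not found in the RefSeq gene table, so the pair of symbol and ID rests on general knowledge. The same holds for NF-YC8, NF-YC10, NF-YC12, NF-YB7, NF-YB9 and the NF-YA genes named below. NF-YC12, another listed NF-YC gene, fell further, to 191, 192 and 194 FPKM in nf-yc11, against 741, 762 and 762 FPKM in WT. The labels do not say which of these loci, if either, is mutated, and a mutation may leave a transcript in place. Neither level therefore checks the labels, and whether the fall of NF-YC12 is the mutation itself or follows from it was not tested. The 6 endosperm markers were all abundant, with summed levels of 16118 to 16184 FPKM in nf-yc11 and 18297 to 18756 FPKM in WT. Most of this was GluA2, with means of 10866 FPKM in nf-yc11 and 12600 FPKM in WT. In nf-yc11, 4 of 6 were called as lower and 1 as higher. Beside this and the marker counts below, 29.8% of all features tested were called as higher and 19.3% as lower. Under quantile normalization GluA2 lost its call and RPBF was called as lower. With library totals that leave out the 100 most abundant features, 5 of 6 were called as lower. Markers listed for embryo and aleurone and for green pericarp were detected too. The aleurone is itself a layer of the endosperm, so the embryo and aleurone sum does not measure other seed parts. The 6 embryo and aleurone markers summed to 5186 to 5594 FPKM in nf-yc11 and 4557 to 4906 FPKM in WT. Most of it came from OLE16 and OLE18, with means of 2583 and 2442 FPKM in nf-yc11 and 2025 and 2302 FPKM in WT. Of the 6 markers, 1 was called as higher (OLE16), 3 were called as lower and none was at 0. Of the 3 lower, VP1 lost its call without nf-yc11 replicate 3 and when any 1 of the WT libraries was left out. OSH1, a gene of the embryo's shoot meristem, was at 0.735 to 1.33 FPKM in nf-yc11 and 0.654 to 1.10 FPKM in WT. With a mean of 0.872 FPKM over the 6 libraries it was too low to enter the test. The 5 photosynthesis genes, active in green pericarp, summed to 1615 to 1724 FPKM in nf-yc11 and 1773 to 1781 FPKM in WT. CAB2R, not called, was the largest part, with means of 1143 FPKM in nf-yc11 and 1107 FPKM in WT. Of the 5 genes, 1 was called as higher, 2 were called as lower and none was at 0. The higher one, RBCS3, lost its call under each of the 3 scalings, without a filter on low values, without the variance trend and when any 1 of the WT libraries was left out, and RBCS2 was also called without nf-yc11 replicate 1. Their part in the results below was not tested. In such tissue samples fewer cells of a type and less RNA per cell cannot be told apart.

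Of the 10 genes, 9 had a mean of at least 1 FPKM over the 6 libraries and entered the test. NF-YC1 and NF-YC6 were higher in nf-yc11, NF-YB2 and NF-YC4 were lower, and the other 5 did not pass (adjusted p under 0.05, limma on log2(FPKM + 1), adjusted over 22093 features). Of all features tested, 49.1% were called, 29.8% as higher and 19.3% as lower in nf-yc11. The share of these 9 genes that was called, 4 of 9, is therefore near that of all features and is not a result about the genes as a group. The split of all features depended on scaling, with 6586 features higher and 4256 lower when none was used beyond the library totals in FPKM. Size factors gave 5434 higher against 5296 lower calls, and quantile normalization gave 5403 higher against 5273 lower. Library totals that leave out the 100 most abundant features turned the majority, to 5732 lower calls beside 5015 higher ones. The groups of 3 libraries did not overlap for 5 of the 9 genes, against 59.7% of all features. The median log2 change of the 9 genes was 0.05, and that of all features was 0.06.

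**Figure D1:**
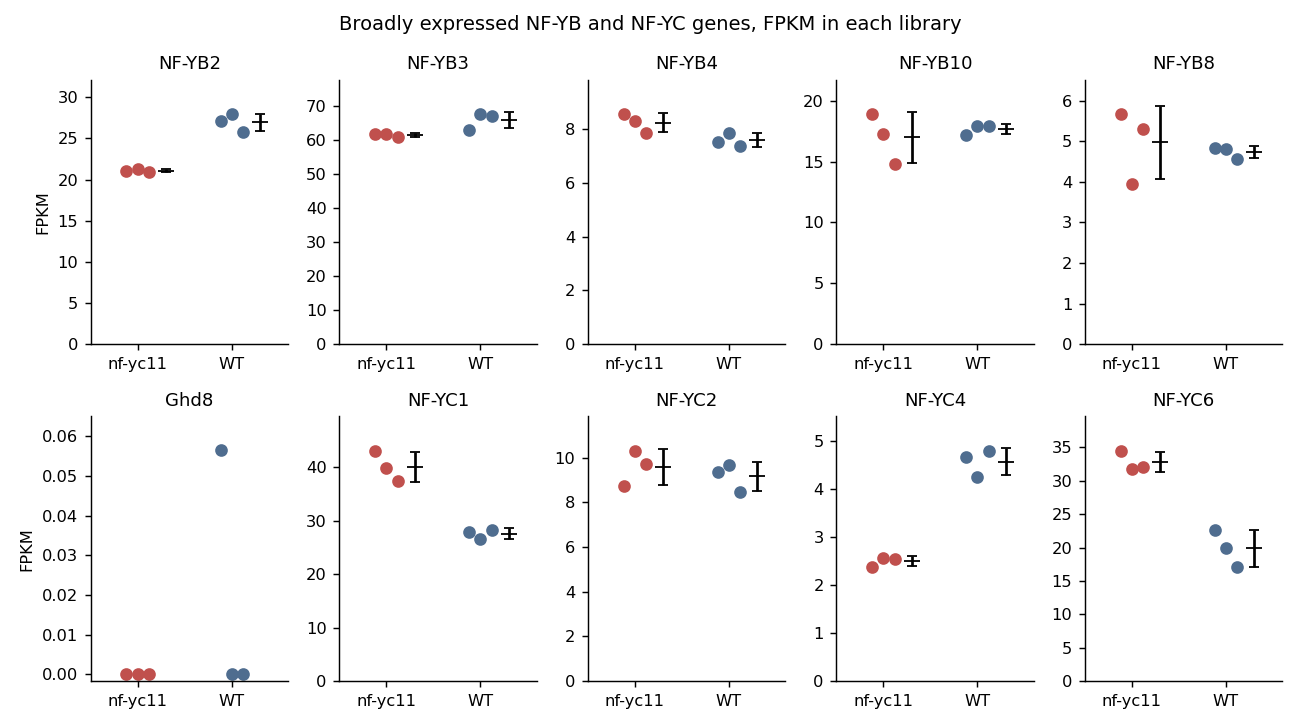
FPKM of each gene in the 3 nf-yc11 libraries (red) and the 3 WT libraries (blue), each panel with its own linear axis; the black bar is the mean and its whiskers 1 SD (n = 3), not drawn for Ghd8. NF-YC1 and NF-YC6 lie higher in all nf-yc11 libraries, at 37.5 to 43.1 and 31.8 to 34.5 FPKM, and NF-YB2 and NF-YC4 lie lower, at 20.9 to 21.3 and 2.38 to 2.56 FPKM.

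Among the NF-YC genes, 2 rose, 1 fell and 1 did not pass. NF-YC6 (OS08G0496500, chromosome 8, 962 bases long in the counting behind the values) had 34.5, 31.8 and 32.1 FPKM in nf-yc11 replicates 1 to 3, against 22.7, 19.9 and 17.1 FPKM in WT replicates 1 to 3. All nf-yc11 libraries lay above all WT libraries, and the WT libraries were spread widely. NF-YC6 averaged 32.8 ± 1.48 FPKM in nf-yc11 and 19.9 ± 2.80 FPKM in WT (SD, n = 3 each), and was 1.65-fold higher in nf-yc11 (log2 change 0.70 ± 0.10 SE, adjusted p = 0.00126, limma). These values rested on 522, 488 and 524 reads in nf-yc11 and on 480, 299 and 240 reads in WT. The coefficient of variation was 4.51% in nf-yc11, where counting alone gives 4.42%, but 14.1% in WT, where counting alone gives 5.66%.

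NF-YC1 (OS02G0170500, chromosome 2, 1238 bases) had 43.1, 39.9 and 37.5 FPKM in nf-yc11, against 27.9, 26.5 and 28.3 FPKM in WT. The groups were well apart, and here the nf-yc11 libraries were the more spread. NF-YC1 averaged 40.1 ± 2.81 FPKM in nf-yc11 and 27.6 ± 0.969 FPKM in WT, which is 1.46-fold higher in nf-yc11 (log2 change 0.52 ± 0.06 SE, adjusted p = 0.000512, limma). It was the most abundant of the 4 NF-YC genes in both groups.

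NF-YC4 (OS06G0667100, chromosome 6, 1418 bases) is known from rice, together with NF-YC2, as a repressor of flowering in long days. It had 2.38, 2.56 and 2.53 FPKM in nf-yc11, against 4.65, 4.25 and 4.78 FPKM in WT. Every nf-yc11 library was below every WT library. NF-YC4 averaged 2.49 ± 0.101 FPKM in nf-yc11 and 4.56 ± 0.280 FPKM in WT, a level 1.83-fold lower in nf-yc11 (log2 change −0.67 ± 0.08 SE, adjusted p = 0.000656, limma). It was the least abundant of the genes tested, with 53, 58 and 61 reads in nf-yc11 and 145, 94 and 99 reads in WT. The scale of log2(FPKM + 1) understates the change of so low a gene, and on the reads themselves (voom in limma) the log2 change was −0.87 ± 0.14 SE. The coefficient of variation was 4.06% in nf-yc11 and 6.14% in WT, less than the 13.2% and 9.6% that counting alone gives. Here the SD of 3 libraries is thus smaller than the counting error.

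NF-YC2 (OS03G0251350, chromosome 3, 1217 bases), the other of the pair that represses flowering, had 8.72, 10.3 and 9.72 FPKM in nf-yc11, against 9.34, 9.69 and 8.45 FPKM in WT. The groups overlapped, and NF-YC2 did not pass (log2 change 0.06, 95% confidence interval −0.13 to 0.25, adjusted p = 0.58, limma). The interval leaves room for a difference of either sign.

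Among the NF-YB genes tested, 1 of 5 fell and 4 did not pass. NF-YB2, NF-YB3 and NF-YB4 are also known as OsHAP3A, OsHAP3B and OsHAP3C, and in rice leaves these genes are needed for normal chloroplasts. NF-YB2 (OS01G0834400, chromosome 1, 1082 bases) had 21.1, 21.3 and 20.9 FPKM in nf-yc11, against 27.1, 27.9 and 25.8 FPKM in WT. The nf-yc11 libraries lay close together and all below the WT libraries. NF-YB2 averaged 21.1 ± 0.186 FPKM in nf-yc11 and 27.0 ± 1.06 FPKM in WT, which is 1.28-fold lower in nf-yc11 (log2 change −0.34 ± 0.04 SE, adjusted p = 0.00098, limma). The nf-yc11 libraries varied by 0.881% (coefficient of variation), less than the 5.20% that counting alone gives, so the SD of 3 libraries is smaller than the counting error there.

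NF-YB3 (OS05G0463800, chromosome 5, 1222 bases) was the most abundant of the 10 genes, with 61.8, 61.8 and 60.8 FPKM in nf-yc11 and 63.1, 67.7 and 67.1 FPKM in WT. The groups did not overlap but came close, since WT replicate 1 lay only a little above the nf-yc11 libraries. NF-YB3 did not pass (log2 change −0.10, 95% confidence interval −0.19 to −0.01, adjusted p = 0.0673, limma). It did pass, as lower in nf-yc11, once libraries were scaled by size factors (log2 change −0.17, adjusted p = 0.00867, limma), by quantile normalization (−0.22, adjusted p = 0.00452) or by the total without the 100 most abundant features (−0.20, adjusted p = 0.00544). It also passed without WT replicate 1 (−0.13, adjusted p = 0.037, limma).

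NF-YB4 (OS05G0573500, chromosome 5, 854 bases) had 8.56, 8.29 and 7.86 FPKM in nf-yc11, against 7.51, 7.88 and 7.38 FPKM in WT. The lowest nf-yc11 library lay just below the highest WT library, and NF-YB4 did not pass (log2 change 0.10, 95% confidence interval −0.04 to 0.25, adjusted p = 0.194, limma). Whether the changes of the 3 OsHAP3A to OsHAP3C genes differ from each other was not tested.

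NF-YB10 (OS07G0606600, chromosome 7, 932 bases) had 18.9, 17.3 and 14.8 FPKM in nf-yc11, against 17.2, 17.9 and 17.9 FPKM in WT. The nf-yc11 libraries spanned the WT range on both sides, with a coefficient of variation of 12.2% in nf-yc11 and 2.48% in WT, where counting alone gives 6.26% and 5.99%. NF-YB10 did not pass (log2 change −0.06, 95% confidence interval −0.27 to 0.14, adjusted p = 0.585, limma). NF-YB8 (OS03G0413000, chromosome 3, 1065 bases) had 5.67, 3.94 and 5.31 FPKM in nf-yc11, against 4.83, 4.81 and 4.57 FPKM in WT. Its nf-yc11 libraries also lay on both sides of WT, and it did not pass (log2 change 0.05, 95% confidence interval −0.24 to 0.33, adjusted p = 0.771, limma).

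Ghd8 (OS08G0174500, chromosome 8), also named DTH8, Hd5 and NF-YB11, delays flowering in long days and raises grain number and plant height. It was listed at 0 in all 3 nf-yc11 libraries and in WT replicates 2 and 3, and at 0.0566 FPKM in WT replicate 1. That value is what 1 read on 804 bases gives, the smallest whole number that fits it. A floor of 3 reads on this length is 0.170 to 0.256 FPKM in these libraries, which covers counting error only. No difference was detectable at this depth. The minimum of 1 FPKM left Ghd8 out, and without that minimum it was not called (adjusted p = 0.675, limma).

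**Figure D2:**
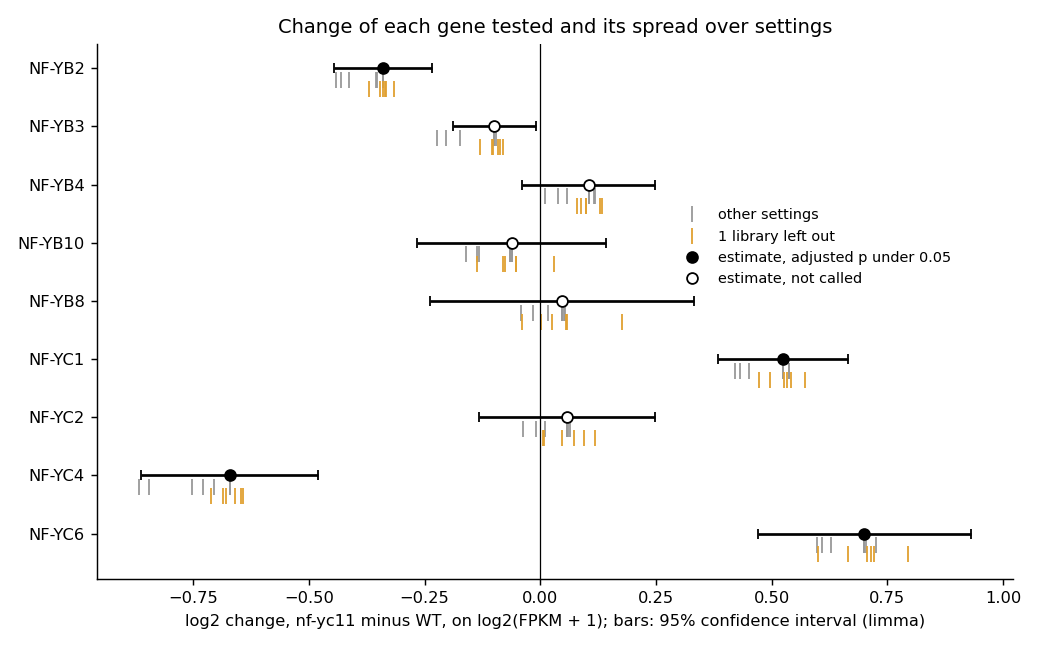
Log2 change of each gene tested, nf-yc11 minus WT on log2(FPKM + 1), as points with their 95% confidence interval (limma; filled where adjusted p was under 0.05), and below each point its values under the other settings (grey) and with 1 library left out (orange). The 4 called genes keep their side of 0 at every mark, from −0.87 to −0.64 for NF-YC4 and from 0.60 to 0.80 for NF-YC6, whereas marks of NF-YB8, NF-YB10 and NF-YC2 lie on both sides.

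Ranked by absolute change on log2(FPKM + 1) among all features tested, NF-YC6 stood at percentile 87.6, NF-YC4 at 86.3, NF-YC1 at 77.9 and NF-YB2 at 60.8. The 5 genes that did not pass stood between percentiles 9.78 and 21.8. The order of the first 2 depends on the scale: with a pseudocount of 0.1 the log2 change was −0.85 for NF-YC4 and 0.73 for NF-YC6, and with voom −0.87 and 0.70.

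The order of levels changed around NF-YC6. In nf-yc11 the order by mean FPKM was NF-YB3, NF-YC1, NF-YC6, NF-YB2, NF-YB10, NF-YC2, NF-YB4, NF-YB8, NF-YC4 and Ghd8, and the ranges of neighbours did not overlap. In WT, NF-YB2 stood before NF-YC6, and neighbours overlapped for NF-YC1 with NF-YB2, NF-YC6 with NF-YB10 and NF-YB8 with NF-YC4. NF-YC6 thus lay at 31.8 to 34.5 FPKM above NF-YB2 at 20.9 to 21.3 FPKM in nf-yc11, but at 17.1 to 22.7 FPKM below NF-YB2 at 25.8 to 27.9 FPKM in WT.

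The balance among the 4 NF-YC genes can be read within each library, where scaling between libraries has no part. NF-YC4 made up 2.94% ± 0.224 of their summed FPKM in nf-yc11 and 7.46% ± 0.604 in WT (SD, n = 3 each). The share of NF-YC6 was 38.6% ± 0.850 in nf-yc11 and 32.4% ± 3.03 in WT, and that of NF-YC1 47.2% ± 1.39 in nf-yc11 and 45.1% ± 2.76 in WT. NF-YC2 made up 11.3% ± 1.28 in nf-yc11 and 15.0% ± 0.938 in WT. The FPKM ratio of NF-YC1 to NF-YC4 was 18.1, 15.6 and 14.8 in nf-yc11, against 6.0, 6.24 and 5.92 in WT. The share of NF-YC1 overlapped between the groups, and those of NF-YC2, NF-YC4 and NF-YC6 did not. By level, groups did not overlap for 59.7% of all features tested, and shares were not tested.

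Among the NF-YB genes NF-YB3 held most of the summed FPKM in both groups, at 54.5% ± 1.13 in nf-yc11 and 53.6% ± 0.964 in WT. NF-YB2 held 18.7% ± 0.467 in nf-yc11 and 21.9% ± 0.812 in WT, and NF-YB4 held 7.30% ± 0.12 in nf-yc11 and 6.17% ± 0.140 in WT. The FPKM ratio of NF-YB3 to NF-YB2 was 2.93, 2.90 and 2.91 in nf-yc11, against 2.33, 2.42 and 2.60 in WT.

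**Figure D3:**
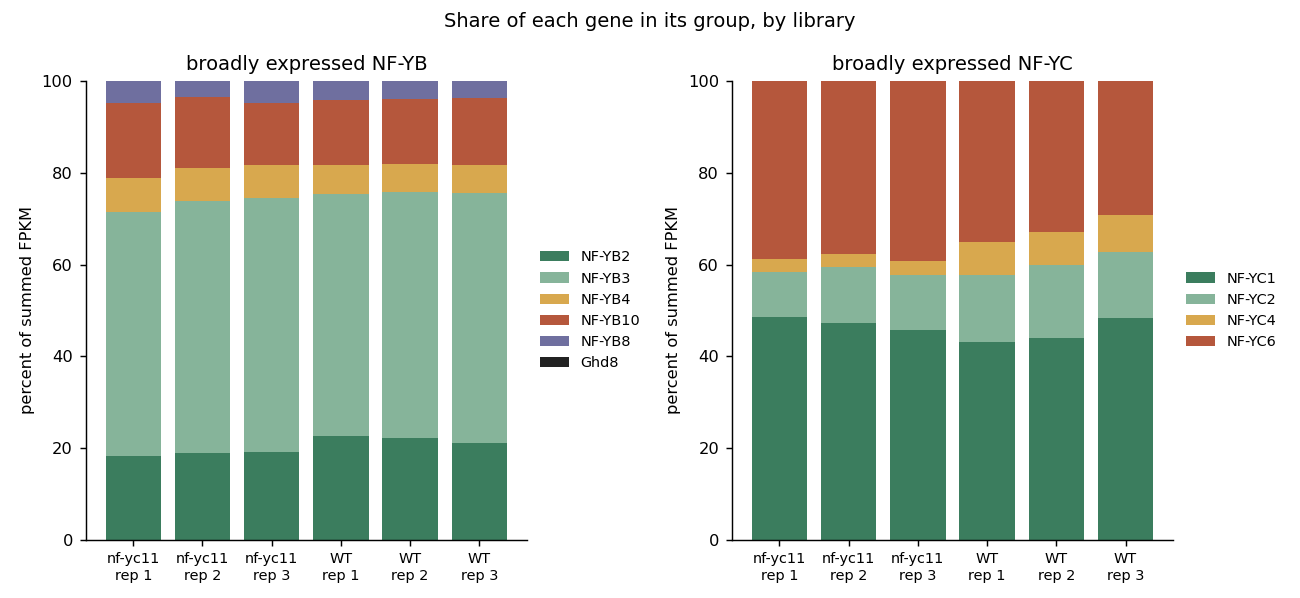
Percent of the summed FPKM of the 6 NF-YB genes (left) and of the 4 NF-YC genes (right) that each gene supplied, 1 bar per library, nf-yc11 left of WT. The NF-YC4 band is 2.68% to 3.10% in nf-yc11 and 7.04% to 8.16% in WT, and the NF-YB3 band is the widest of the NF-YB genes in every library; the Ghd8 band is too thin to see.

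Summed over each kind of subunit, the 4 NF-YC genes came to 88.6, 84.6 and 81.8 FPKM in nf-yc11, against 64.6, 60.3 and 58.7 FPKM in WT. The 6 NF-YB genes came to 116, 113 and 110 FPKM in nf-yc11, against 120, 126 and 123 FPKM in WT. The NF-YC sum was higher in each nf-yc11 library and the NF-YB sum lower, without overlap. Groups also did not overlap for 59.7% of all single features tested, and most of the NF-YB sum was NF-YB3, which did not pass. The ratio of the NF-YB sum to the NF-YC sum was 1.33 ± 0.0164 in nf-yc11 and 2.01 ± 0.138 in WT. No test was made on sums over chosen genes.

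The other NF-YB and NF-YC genes listed, most of them known from developing seed, summed to higher levels. Of these 8, the ID written for NF-YC9 had no row in the expression table, so the sums leave NF-YC9 out. Of the other 7, all tested, 6 fell and 1, NF-YB9, rose (median log2 change −0.66, against 0.06 for all features). Of all features tested, 29.8% were called as higher and 19.3% as lower. NF-YB9 lost its call under each of the 3 scalings, when no variance trend was used, and when WT replicate 1 or 3 was left out. NF-YC12, the main endosperm NF-YC gene by level, had 191, 192 and 194 FPKM in nf-yc11, against 741, 762 and 762 FPKM in WT. NF-YB1 had 242, 243 and 234 FPKM in nf-yc11, against 451, 443 and 422 FPKM in WT. The broadly expressed genes supplied 19.5% ± 0.891 of the FPKM of all listed NF-YC genes in nf-yc11 and 6.06% ± 0.384 in WT. For NF-YB these shares were 27.1% ± 0.102 in nf-yc11 and 19.9% ± 0.685 in WT. In absolute level the summed FPKM of the other NF-YC genes was 351 ± 5.69 in nf-yc11 and 950.0 ± 16.1 in WT. A difference between these genes and the broadly expressed ones was not tested.

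**Figure D4:**
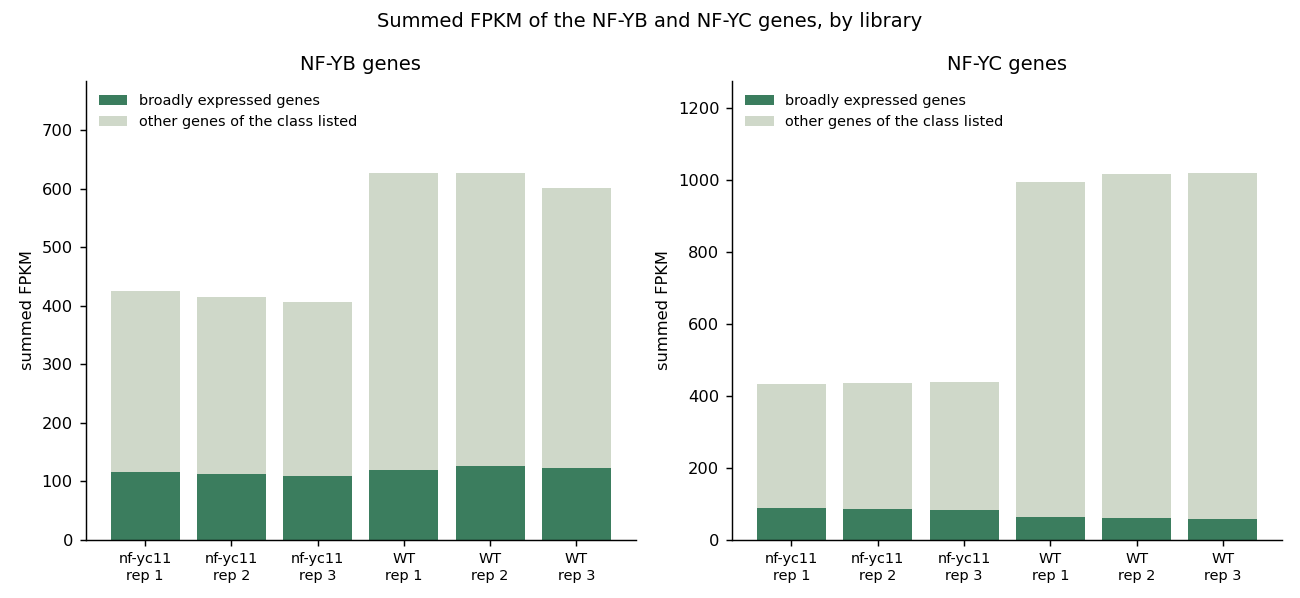
Summed FPKM of the NF-YB genes (left) and NF-YC genes (right) in each library, nf-yc11 left of WT, with the broadly expressed genes in dark green and the other listed genes of the same subunit stacked above in pale green. The dark part of the NF-YC bars is 81.8 to 88.6 FPKM in nf-yc11 and 58.7 to 64.6 FPKM in WT, while the pale part is 345 to 357 FPKM in nf-yc11 and 932 to 962 FPKM in WT.

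NF-YA genes, whose products complete the complex, went both ways. Of 10 tested, 2 were called as higher in nf-yc11, 3 as lower and 5 not, with −0.12 as the median log2 change. Of all features tested, 49.1% were called, so this count is not a result about the NF-YA genes as a group. NF-YA4 and NF-YA8 as lower and NF-YA7 as higher were called under every alternative run. NF-YA2, called as higher, lost its call under each scaling, without the variance trend, with the replicate block, with RAP gene IDs only and whenever 1 library was left out. NF-YA1, called as lower, lost it without the variance trend, with the replicate block and whenever 1 library other than nf-yc11 replicate 2 was left out. NF-YA8, the most abundant, had 82.9, 85.1 and 84.6 FPKM in nf-yc11, against 134, 143 and 138 FPKM in WT, and fell by 0.71 on the log2 scale (adjusted p = 1.97e-05, limma). NF-YA7 had 23.2, 26.4 and 25.5 FPKM in nf-yc11, against 19.7, 19.9 and 19.1 FPKM in WT, and rose (log2 change 0.34, adjusted p = 0.00302, limma).

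Of 5 flowering-time genes that act with Ghd8 and its partners or downstream of them, Hd1, Ghd7 and Ehd1 were listed at 0 in all 6 libraries. Hd3a, a florigen gene, stood at 0.225, 0.0740 and 0.556 FPKM in nf-yc11, against 0.591, 1.51 and 0.809 FPKM in WT, and its mean was under the 1 FPKM needed for the test. Its groups did not overlap, as for 59.7% of the features tested, and it was not called when no minimum was set. PRR37, a CCT-domain gene, had 3.18, 3.04 and 2.92 FPKM in nf-yc11, against 2.70, 3.20 and 2.58 FPKM in WT, with overlapping groups, and did not pass (adjusted p = 0.505, limma).

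Profiles over the 6 libraries were compared among 26 NF-Y genes tested, by the root-mean-square distance between log2(FPKM + 1) values centred on the mean of each gene. The gene most like NF-YC4 was NF-YC8, at a distance of 0.023. This closeness depends on the added 1 FPKM, which understates the change of NF-YC4. In plain FPKM the ratio of nf-yc11 to WT means was 0.546 for NF-YC4 and 0.618 for NF-YC8. NF-YA4 was nearest to NF-YB2 (0.066), NF-YA1 to NF-YB3 (0.052), NF-YA2 to NF-YB4 (0.033) and NF-YA2 to NF-YC2 (0.076). NF-YB3 was nearest to NF-YB10 (0.093) and NF-YA3 to NF-YB8 (0.10). For NF-YC1 it was NF-YA7 (0.15), and for NF-YC6 it was NF-YC1 (0.15), the widest of these nearest distances.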

How the data were processed

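RNA was sequenced from rice endosperm, 3 libraries labelled nf-yc11 and 3 labelled WT. Per the labels' protocols, RNA was extracted with TRIzol and libraries were made by a standard Illumina method. The authors deposited 1 table of FPKM values, 1 column per library. CASAVA 1.7, HISAT2 2.0.5 and DESeq are named, with no role, per the submitters' processing notes; for the counter, build and annotation the sources used here give nothing, and coordinates are left out.

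Whole reads were recovered from the FPKM values: the totals and feature lengths that make all reads of a feature whole, within 0.0001, were found for 36189 of 36189 features above 0. The reads came to 99.6% to 99.7% of the totals. A common factor of all 6 counts would go unseen, which matters only for features of few reads.

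Changes were tested with limma 3.58.1 (R 4.3.3) on log2(FPKM + 1), with a variance trend and no scaling between libraries beyond the totals in FPKM. The 22093 features averaging 1 FPKM or more were tested, with Benjamini-Hochberg adjustment over all of them. An exact permutation test of 3 against 3 cannot go below p = 0.1. The steps were also run on simulated data. Its spread beyond counting was set small, below that of NF-YC6 in WT, so it does not show how the test does on such genes. The alternatives were another pseudocount (0.1), no filter or 5 FPKM, quantile normalization, size factors, library totals that leave out the 100 most abundant features, no variance trend, the replicate number as a block, each library left out, voom on the recovered reads, and RAP gene IDs only.

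The genes and lists were chosen with earlier results of these data known. All 10 genes were to be named, with genes from the lists of NF-YA, other NF-YB and NF-YC, flowering-time and marker genes; likeness was measured among NF-Y genes only. A further flowering-time gene is not reported here. Python 3.11.15, numpy 2.4.6, pandas 2.3.3 and matplotlib 3.10.9 were used for tables and plots.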

Additional observations from a re-analysis of the deposited data

How the results depend on the processing

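NF-YB2, NF-YC1, NF-YC4 and NF-YC6 kept their direction and their call under every alternative that tested them; NF-YC4 was not tested with a minimum of 5 FPKM, so that setting left 1 gene called as lower by its construction (fewer genes tested). The number of the 10 genes called as lower was 2 to 3, and of all called 4 to 5, when 1 library was left out. Values that changed sign, all of genes not called, were those of NF-YB8 (−0.016 with size factors and −0.040 with library totals that leave out the 100 most abundant features) and NF-YC2 (−0.010 and −0.037). With 1 library left out, NF-YB8 ran from −0.039 (without nf-yc11 replicate 1) to 0.18 (without nf-yc11 replicate 2), and NF-YB10 from −0.14 (without nf-yc11 replicate 1) to 0.030 (without nf-yc11 replicate 3). The cause was not tested. Over all features, the median log2 change shifted by −0.063 with size factors, −0.058 with quantile normalization and −0.088 with those totals. Over all features 8320 to 11696 were called, and 9093 to 9669 with 1 library left out. Libraries that share a replicate number had correlations of their deviations of −0.0505, 0.0042 and −0.0477, and those of different numbers had −0.0569 to 0.109. These values do not show pairing by number, but such correlations cannot exclude that libraries were handled in pairs. The replicate block called 4 of the 10 genes and 9948 features, and not NF-YA1 or NF-YA2. Depth limits Ghd8 and Hd3a and the precision of NF-YC4.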
